A study of Homo sapiens with 32 samples.

Results

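The response of RH4 cells to 1 uM A485 was set against the response to 100 nM A485, at 2 h and at 6 h. RH4 is an established human alveolar rhabdomyosarcoma line, a muscle-lineage tumour line that carries the PAX3-FOXO1 fusion, and A485 is a small molecule that blocks the catalytic site of the acetyltransferases CBP and p300. The members were 4 RNA-seq libraries, 2 of cells given 1 uM and 2 of cells given 100 nM, out of 20 RNA-seq libraries and 32 samples in the series. The libraries were chosen by their treatment label and paired by time. Levels in 2 DMSO libraries (the solvent) and in 2 libraries with the treatment label NT, an abbreviation left unexplained there, are given for reference, each at 2 h and at 6 h. Both serve as controls below, though the labels do not say that NT cells received no compound. The same doses and times of dCBP, IHK-44 and JQAD, which the series describes as CBP/p300 inhibitors or degraders, supplied the spread of the test and the comparison in the last paragraphs. All libraries came from the same line, without a genetic change named in the labels, so the data describe 1 tumour line only. Each condition had 1 library, and the labels do not say that the libraries came from separate cultures, so p-values measure the spread between these libraries, which may be technical.

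CBP (gene CREBBP) and p300 (gene EP300) are large coactivators that transcription factors recruit to enhancers and promoters, where they acetylate histone tails and other proteins. That acetylation is read by bromodomain proteins and accompanies active transcription, and genes with short-lived transcripts lose RNA soon after it is blocked. In alveolar rhabdomyosarcoma the coactivators act beside PAX3-FOXO1, MYOD1, MYCN and SOX8 at a set of strong enhancers that hold the tumour in an undifferentiated muscle state.

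The 4 A485, 2 DMSO and 2 NT libraries held 14657063 to 16661051 estimated counts over coding genes, and levels are given as CPM, those counts scaled to the same coding total in each library. All 10 rhabdomyosarcoma markers were measured, with a summed level of 1560 to 2950 CPM over the 8 libraries. Markers of 13 genes of other cell types (blood, epithelium, endothelium, liver, glia and melanocytes) summed to 1.86 to 4.63 CPM, with 3.71 to 4.63 CPM in the A485 libraries, and PTPRC, EPCAM and KRT5 were at 0 in all 8. The 100 nM library at 6 h shared many of its high genes with a JQAD library. In it 112 of 12174 genes (0.92%) were at least 2-fold above DMSO. The same count was 33 at 100 nM at 2 h, and 107 and 399 at 1 uM (2 h and 6 h), so it does not set this library apart. Of the 112, 60 were also that high in the 100 nM JQAD library at 6 h, which is 53.6% of the A485 genes and 87% of the 69 JQAD genes. TTN, the gene of the giant muscle protein titin, was at 4370 CPM in the 100 nM A485 library at 6 h and 2700 CPM at 100 nM at 2 h. At 1 uM it was at 1500 and 3130 CPM (2 h and 6 h). TTN also varied among the DMSO and NT libraries, from 908 CPM in DMSO and 2620 CPM in NT at 2 h to 1240 and 1400 CPM at 6 h. Of the 112 genes, 2 passed the dose test described next, OSGIN1 and AKAP5, and the count of that test is therefore also given without the 6 h pair. The coding genes took 53.9% and 49.6% of the deposited TPM at 1 uM (2 h and 6 h) and 43.0% and 47.5% at 100 nM, and whether this share plays a part in the dose difference was not tested.

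The first comparison asked which genes differed between the doses. Raising A485 from 100 nM to 1 uM lowered far more genes than it raised: 112 genes fell and 10 rose. MYC (-2.91 on the log2 scale of the fit), MYCN (-2.28) and BMP4 (-2.23) fell most among genes with a mean level of at least 1 CPM and the same sign at both times, and RIMKLA (2.13), ONECUT2 (1.53) and ZNF774 (1.32) rose most. Together the 122 genes were 0.929% of the 13137 genes tested, the falls 0.853% and the rises 0.0761%. The test was edgeR's quasi-likelihood test of the 1 uM against the 100 nM libraries with compound and time as a block, a Benjamini-Hochberg adjusted p under 0.05 counting as a pass, and 1394 genes had an unadjusted p under 0.05. With 1 library per condition, its spread was the difference between the dose effects at 2 h and at 6 h, pooled over the 4 compounds. A fit with a single A485 pair takes its spread from the other compounds alone. Without the 6 h pair 7 genes passed, and in a fit without the compound-by-time block, where the differences between 2 h and 6 h enter the spread, 0 genes passed (230 at an unadjusted p under 0.05), MYC included among those that did not pass. In these bulk libraries, fewer cells with a transcript and less of it per cell cannot be told apart.

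The median fall was -1.10 on the log2 scale, 79 of the 112 falls were at least 2-fold and 4 at least 4-fold. The 10 rises had a median of 1.11, with 6 of them at least 2-fold. All genes tested had a median of 0.00. Both 1 uM libraries lay below both 100 nM libraries in 105 of the 112 falls, and both lay above in 9 of the 10 rises. Over all genes tested the same held for 9.35% (below) and 22.1% (above). The falls and rises were chosen on the dose difference in these libraries, so their separation was largely set by that choice and is no test. The 4-fold falls include H2AC19, a histone H2A gene that was at 14.9 to 16.4 CPM in DMSO, NT and 100 nM at 2 h, at 0 at 1 uM, and at 0 in all 4 libraries at 6 h. H2AC18, a near-identical copy, was at 1260 to 1700 CPM in these 8 libraries, so the estimated counts of H2AC19 are uncertain and no fold is given.

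**Figure D1:**
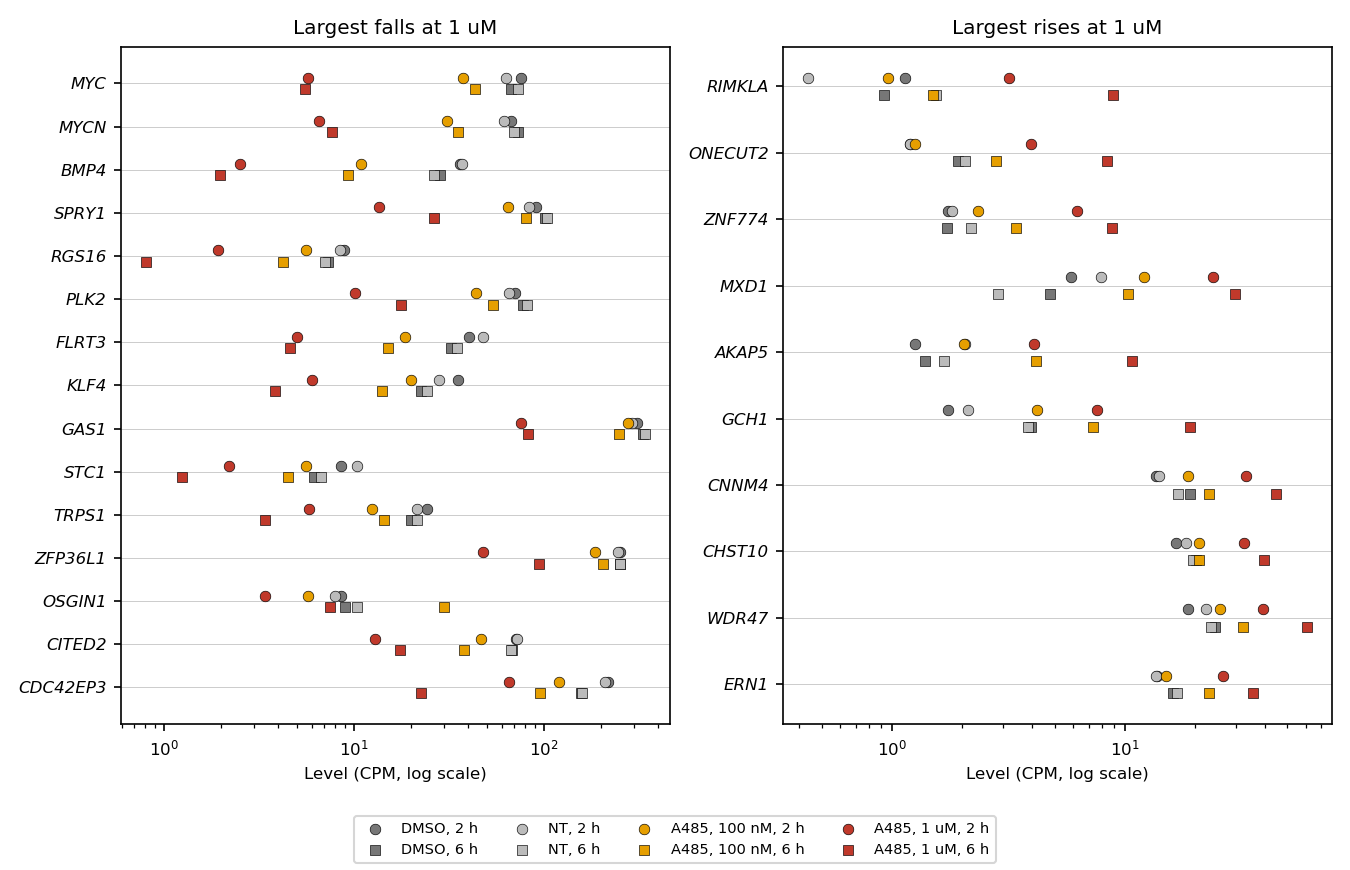
Levels in CPM (log scale) of the 15 largest falls and the 10 rises in the 8 libraries, with DMSO in dark grey, NT in light grey, 100 nM A485 in orange and 1 uM A485 in red, circles for 2 h and squares for 6 h. Within each time the 1 uM point lies left of the 100 nM point in each gene of the left panel and right of it in each gene of the right panel. Across times the doses overlap in OSGIN1 and AKAP5, and for OSGIN1 the 100 nM library at 6 h lies at 30.0 CPM, above DMSO and NT.

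The promoter windows of 5 of these genes are printed because the series asks, by its title, about CpG islands and dependence on CBP/p300, and these genes passed the dose test, MYCN, PLK2, BTG2 and JUN lower and MXD1 higher at 1 uM. Each window runs from 250 bases before to 50 bases after the gene's start, 5′ to 3′ on the strand of the gene, from RefSeq on GRCh38.p14, with each CG dinucleotide in capitals. MYCN lies at chr2:15940300-15940599 on the plus strand, PLK2 at chr5:58460037-58460336 on the minus strand, BTG2 at chr1:203305269-203305568 on the plus strand, JUN at chr1:58783998-58784297 on the minus strand, and MXD1 at chr2:69914859-69915158 on the plus strand.
MYCN: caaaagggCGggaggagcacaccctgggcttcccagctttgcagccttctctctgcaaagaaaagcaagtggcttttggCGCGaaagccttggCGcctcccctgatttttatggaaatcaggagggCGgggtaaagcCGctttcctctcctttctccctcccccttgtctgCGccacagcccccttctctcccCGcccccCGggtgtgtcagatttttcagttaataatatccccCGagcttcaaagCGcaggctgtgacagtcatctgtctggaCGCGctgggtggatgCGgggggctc
PLK2: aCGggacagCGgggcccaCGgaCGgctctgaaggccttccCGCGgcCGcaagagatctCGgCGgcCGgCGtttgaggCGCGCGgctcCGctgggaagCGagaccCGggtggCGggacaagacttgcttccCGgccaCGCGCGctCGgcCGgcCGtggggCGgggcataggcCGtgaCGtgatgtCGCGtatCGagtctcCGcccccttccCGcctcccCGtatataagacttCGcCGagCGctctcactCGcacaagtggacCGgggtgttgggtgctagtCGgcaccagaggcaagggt
BTG2: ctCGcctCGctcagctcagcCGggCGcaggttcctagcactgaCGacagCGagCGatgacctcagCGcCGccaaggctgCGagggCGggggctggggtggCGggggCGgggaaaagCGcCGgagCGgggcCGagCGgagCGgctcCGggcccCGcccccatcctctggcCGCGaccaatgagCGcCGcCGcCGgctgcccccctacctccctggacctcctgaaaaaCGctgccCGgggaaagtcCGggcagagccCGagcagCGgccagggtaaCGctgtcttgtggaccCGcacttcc
JUN: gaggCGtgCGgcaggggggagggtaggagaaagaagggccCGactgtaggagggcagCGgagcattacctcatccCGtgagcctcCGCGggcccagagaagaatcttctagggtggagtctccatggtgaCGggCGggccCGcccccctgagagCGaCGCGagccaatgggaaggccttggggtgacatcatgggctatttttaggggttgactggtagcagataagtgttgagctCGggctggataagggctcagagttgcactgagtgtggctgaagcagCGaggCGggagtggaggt
MXD1: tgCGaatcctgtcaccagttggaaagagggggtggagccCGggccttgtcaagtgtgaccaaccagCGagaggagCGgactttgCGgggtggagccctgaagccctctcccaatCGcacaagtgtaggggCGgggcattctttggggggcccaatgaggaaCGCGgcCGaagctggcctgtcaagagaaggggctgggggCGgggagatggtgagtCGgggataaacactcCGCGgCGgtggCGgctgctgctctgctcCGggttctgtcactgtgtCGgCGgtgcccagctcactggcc
These windows held 14 (MYCN), 40 (PLK2), 34 (BTG2), 16 (JUN) and 19 (MXD1) CG dinucleotides, and the median over the 10695 tested genes with a window was 26. Observed over expected CpG was 0.55 for MYCN, 0.62 for JUN, 0.63 for MXD1, 0.84 for BTG2 and 1.09 for PLK2, beside a median of 0.84 over those genes. So the falls shown include windows both poor and rich in CpG. Searched on both strands, none of the 5 windows held the cAMP response element TGACGTCA (in 3.26% of all windows), the E-box read by MYC and MAX, CACGTG (in 9.93%), the AP-1 site TGANTCA (in 4.35%), or the TATA box searched for as TATAAA (in 5.98%). Only these exact strings were searched, so variants of the sites were not counted and may be present. A window was known for 89 of the 112 falls (79.5%), beside 81.4% of all genes tested. Observed over expected CpG in these windows had a median of 0.78. It was at least 0.6 in 66.3% of them, against 81.7% over all windows. TATAAA was found in 14.6% of them, CACGTG in 15.7%, TGANTCA in 7.87% and TGACGTCA in 3.37%. These shares rest on 1 start per gene, and their difference from all windows was not tested. Gene span was known for all 112 falls and had a median of 14422 bp, against 31629 bp over the 13037 tested genes with a span and 47207 bp over the 10 rises.

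MYC and MYCN, the paired growth-promoting transcription factors that bind DNA with MAX, fell most. MYC was at 37.4 CPM at 100 nM and 5.76 CPM at 1 uM at 2 h, and at 43.7 and 5.54 CPM at 6 h, while DMSO and NT held 63.4 to 75.6 CPM. Both 1 uM libraries were thus far below the 4 control libraries, with the 100 nM libraries between them. The fitted change of MYC was -2.91 (log2, SE 0.17, edgeR adjusted p = 1.85e-05). MYCN, a direct target of the fusion in this tumour, was at 30.9 and 6.60 CPM (100 nM and 1 uM) at 2 h and at 35.2 and 7.72 CPM at 6 h, against 61.6 to 73.2 CPM in DMSO and NT. The order of the libraries was that of MYC, and the fitted change was -2.28 (SE 0.23, edgeR adjusted p = 0.00184). MYCN overlaps an antisense gene, and whether the counting used strand is not given in the sources used here, so reads of the pair cannot be told apart.

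MXD1, which encodes a partner of MAX that opposes MYC, rose. At 2 h MXD1 was at 5.88 CPM in DMSO, 7.88 in NT, 12.1 at 100 nM and 23.9 at 1 uM, and at 6 h at 4.78, 2.86, 10.3 and 29.8 CPM in the same order. The doses did not overlap with each other or with the controls, and the fitted change was 1.18 (SE 0.16, edgeR adjusted p = 0.00635). Of the 12 genes of the MYC and MAX network, these 3 passed, 2 lower and 1 higher, and the median change was -0.06. The counts of this and each later list stand beside shares of 0.853% lower and 0.0761% higher over all genes tested. MAX itself was at 34.4 to 37.7 CPM in the 4 A485 libraries, with a fitted change of 0.02 (edgeR adjusted p = 0.991).

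Genes that restrain growth were also among the falls, as were early response genes. PLK2, a kinase induced by p53, was at 44 and 10.2 CPM (100 nM and 1 uM) at 2 h and 54.3 and 17.7 CPM at 6 h, against 65.6 to 81.8 CPM in DMSO and NT (fitted change -1.92, SE 0.16, edgeR adjusted p = 0.000607). BTG2, an antiproliferative p53 target, was at 26.1 and 12.2 CPM at 2 h and 31.8 and 14.8 CPM at 6 h, against 64.3 to 72.7 CPM in the controls (fitted change -1.17, SE 0.13, edgeR adjusted p = 0.00284). BTG2 was thus already far below the 4 control libraries at 100 nM, and PLK2 less so. Of the 21 growth brakes tested, KLF4 (-1.87), GADD45A (-1.02) and CDKN1A (-0.86), the gene of the cell cycle inhibitor p21, also fell, none rose, and the list's median was -0.21. JUN, the core subunit of AP-1, was at 366 and 106 CPM at 2 h and at 394 and 195 CPM at 6 h, against 491 to 510 CPM in the controls (fitted change -1.47, SE 0.15, edgeR adjusted p = 0.00227). On the log2(CPM + 1) scale JUN differed by -1.78 at 2 h and by -1.01 at 6 h. Of the 18 genes of the AP-1 and EGR list, ATF3 (-1.32) and FOSL2 (-0.61) fell too, none rose, and the median was -0.16. EGR1 went the other way without passing, with 13 and 29.6 CPM at 2 h, 7.44 and 22.4 CPM at 6 h, and a fitted change of 1.31 (edgeR adjusted p = 0.0932).

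Signalling genes that fell included ligands, a decoy receptor, feedback inhibitors and targets. BMP4, a secreted ligand of the bone morphogenetic protein family, was at 10.9 and 2.52 CPM (100 nM and 1 uM) at 2 h and at 9.28 and 1.99 CPM at 6 h. DMSO and NT were at 26.4 to 37.1 CPM, so that BMP4 was already well below them at 100 nM, and the fitted change between doses was -2.23 (SE 0.20, edgeR adjusted p = 0.000801). The ligand BMP2 (-1.34), the decoy receptor BAMBI (-1.04) and the target ID1 (-1.01) fell as well. These were 4 of the 25 BMP pathway genes tested, none rose, and the median was -0.36.

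SPRY1, a Sprouty inhibitor of receptor tyrosine kinase signalling, was at 64.5 and 13.6 CPM at 2 h and 81.1 and 26.5 CPM at 6 h, against 83.3 to 104 CPM in the controls (fitted change -1.99, SE 0.23, edgeR adjusted p = 0.00324). The 100 nM libraries lay a little below the controls and the 1 uM libraries far below. PHLDA1 (-1.40), SPRY2 (-1.15) and the ERK phosphatase gene DUSP4 (-0.96) fell with it, 4 of 15 ERK feedback genes tested, with none higher and a median of -0.47. In the Notch list the ligand JAG1 (-1.09) and the target repressors HES1 (-1.29) and HEY1 (-1.27) fell, 3 of 22 genes tested, none rose, and the median was -0.27. Among the other large falls were RGS16 (-1.94), which shortens G protein signalling, FLRT3 (-1.87), a membrane protein of FGF signalling and cell adhesion, GAS1 (-1.80), a Hedgehog co-receptor, and STC1 (-1.63), a secreted glycoprotein. The transcriptional repressor TRPS1 (-1.63), the RNA decay factor ZFP36L1 (-1.60) and CDC42EP3 (-1.52), an effector of CDC42, completed the 15 largest with OSGIN1 and CITED2.

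CITED2, whose protein binds the CH1 domain of CBP and p300 and competes with HIF1A for it, was the only gene of the lysine acetyltransferase and BET list to pass, 1 of 18 (median 0.02). CITED2 was at 46.6 and 12.9 CPM at 2 h and at 38.1 and 17.6 CPM at 6 h, against 67.6 to 72.7 CPM in the controls, with a fitted change of -1.55 (SE 0.17, edgeR adjusted p = 0.00227). The genes of the target proteins did not pass. EP300 was at 327 and 352 CPM at 2 h and 346 and 398 CPM at 6 h (fitted change 0.08, SE 0.14, edgeR adjusted p = 0.923). CREBBP was at 601 and 619 CPM at 2 h and 646 and 756 CPM at 6 h (fitted change 0.06, SE 0.11, edgeR adjusted p = 0.93). Of the 14 HIF and hypoxia genes tested 0 passed, with a median of -0.15.

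The factors that define this tumour are considered next. Of 28 tested genes of the PAX3-FOXO1 circuit and its targets, 4 fell, namely MYCN, TFAP2B (-1.36), PITX3 (-1.20) and the retinoic acid receptor gene RARA (-1.04). None rose, 26 of the 28 had a fitted change below 0, against 6703 of 13137 over all genes tested, and the median was -0.52. SOX8 was at 629 and 422 CPM at 2 h and 458 and 191 CPM at 6 h, and its fitted change of -0.99 (SE 0.38) had an edgeR adjusted p of 0.351. MYOD1, the master regulator of muscle fate, was at 482 and 256 CPM at 2 h and 418 and 272 CPM at 6 h (fitted change -0.84, SE 0.43, edgeR adjusted p = 0.548). MYOG, which drives terminal differentiation, was at 235 and 183 CPM at 2 h and 146 and 65.0 CPM at 6 h (-0.83, SE 0.33, edgeR adjusted p = 0.379). In each of these 3 genes both times had the lower level at 1 uM, and none passed after adjustment over all genes, with unadjusted edgeR p-values of 0.0255 for SOX8, 0.0742 for MYOD1 and 0.0297 for MYOG. Without the IHK-44 libraries SOX8 (edgeR adjusted p = 0.0184) and MYOD1 (0.0263) passed, as did MYOD1 in the 4 A485 libraries alone (0.0206). Reads of the fusion transcript can be counted under PAX3 (fitted change -0.61, edgeR adjusted p = 0.107) or FOXO1 (-0.90, edgeR adjusted p = 0.246), and neither passed. FGFR4, a fusion target and surface receptor, was at 801 and 745 CPM at 2 h and 626 and 533 CPM at 6 h (-0.24, edgeR adjusted p = 0.605).

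Of 17 mesenchymal factors tested 4 fell and none rose, with a median of -0.65. Among them were the homeobox genes SIX4 (-1.05) and SIX2 (-0.89) and the forkhead gene FOXC2 (-0.93). SIX2 was at 81.9 and 53.4 CPM (100 nM and 1 uM) at 2 h and 65.5 and 32.2 CPM at 6 h, against 109 to 115 CPM in the controls. All 4 A485 libraries of SIX2 thus lay below the controls, and 1 uM lay below 100 nM at both times. The remaining lists had no gene that passed: 26 muscle differentiation genes (median -0.24), 15 YAP and TEAD targets (-0.32), 24 G1 cyclin and S phase genes (0.00), 20 mitosis genes (0.00), 18 cholesterol synthesis genes (-0.09) and 16 reference genes (-0.08). These zeros stand beside a share of 0.929% over all genes tested.

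**Figure D2:**
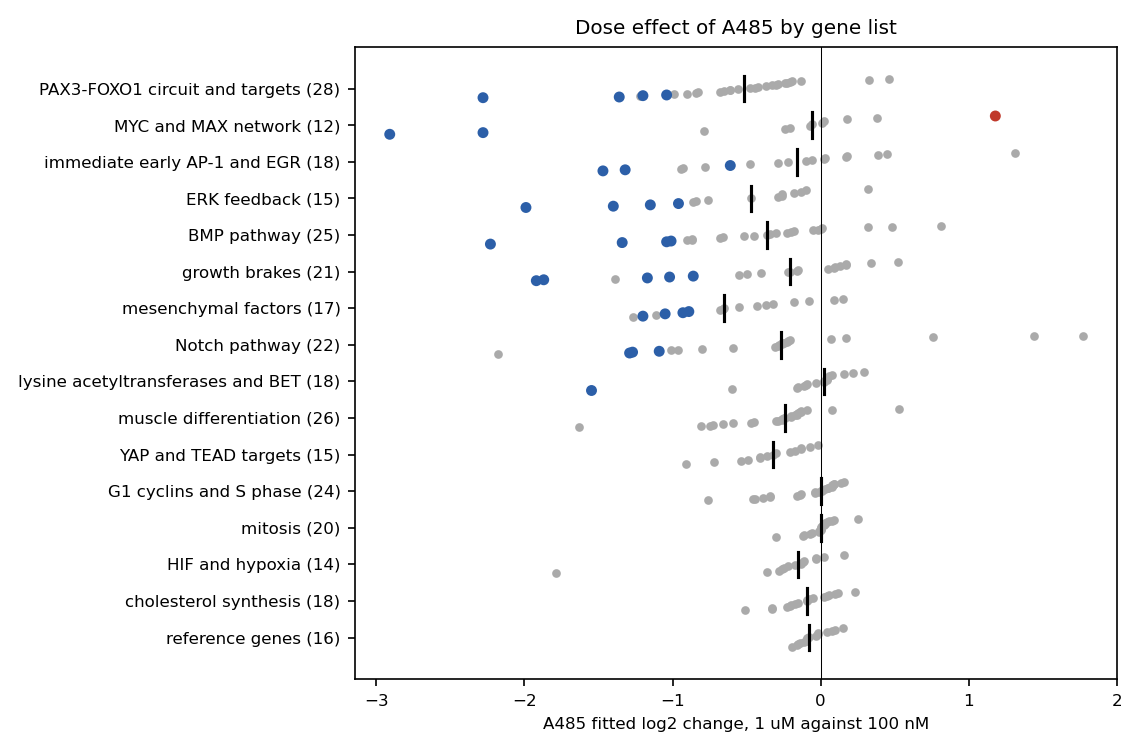
Fitted log2 change between 1 uM and 100 nM A485 for each tested gene of 16 lists, with the number tested in brackets, grey points for genes that did not pass, blue for those that passed lower, red for those that passed higher, and a black bar at the list's median. The points of MYC at -2.91 and MYCN at -2.28 lie furthest left, and MXD1 at 1.18 is the only red point.

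Of the 10 rises MXD1 alone belonged to a list. RIMKLA, an enzyme that joins N-acetylaspartate to glutamate, was at 0.961 and 3.17 CPM (100 nM and 1 uM) at 2 h and 1.5 and 8.90 CPM at 6 h, against 0.437 to 1.54 CPM in the controls. Only the 1 uM libraries of RIMKLA left the range of the controls, and the fitted change was 2.13 (SE 0.27, edgeR adjusted p = 0.0044). The transcription factor gene ONECUT2 (1.53), the zinc finger gene ZNF774 (1.32), AKAP5 (1.14), an anchor of protein kinase A, and GCH1 (1.07), the first enzyme of tetrahydrobiopterin synthesis, followed. CNNM4 (0.83), a magnesium transporter gene, CHST10 (0.72), a sulfotransferase gene, WDR47 (0.69) and ERN1 (0.65), the endoplasmic reticulum stress sensor, rose less. The mean level of the rises over the 8 libraries had a median of 9.20 CPM, against 50.5 CPM for the falls.

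Next the doses were compared at each time. Of 12174 genes, 64 fell short of the 100 nM level by at least 2-fold at 2 h (0.526%) and 11 exceeded it by as much (0.0904%), against 218 (1.79%) and 56 (0.46%) at 6 h, on the log2(CPM + 1) scale, which understates changes of low genes. As a background, NT lay at least 2-fold below DMSO in 2 genes (0.0164%) and above it in 33 (0.271%) at 2 h. At 6 h NT lay below in 5 (0.0411%) and above in 4 (0.0329%). The labels of these libraries name no A485. On the deposited TPM scale, log2(TPM + 1), the balance at 2 h turned, with 18 genes lower and 31 higher, and the median gene lay 0.37 higher at 1 uM. At 6 h the TPM counts were 149 lower and 17 higher. The single libraries of these counts have no replicate check. Of the genes lower, 25 were lower at both times, which is 39.1% of those at 2 h and 11.5% of those at 6 h. Of the genes higher, 5 were higher at both, 45.5% of those at 2 h and 8.93% of those at 6 h.

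Among the 112 genes that fell in the test, 111 had the same sign at both times (H2AC19 was at 0 at 6 h), and 75 fell further at 6 h. All 10 rises had the same sign, and 9 were larger at 6 h. The dose test passes genes whose dose effects at 2 h and 6 h are alike. The shared sign was thus largely set by that choice and is no test. MYC changed by -2.51 and -2.77 on the log2(CPM + 1) scale (2 h and 6 h) and MYCN by -2.07 and -2.05, nearly the same at both times. SPRY1 (-2.17 and -1.58), ZFP36L1 (-1.93 and -1.11), JUN (-1.78 and -1.01) and CITED2 (-1.77 and -1.07) changed more at 2 h. CDC42EP3 (-0.88 and -2.03), TRPS1 (-0.98 and -1.81) and TFAP2B (-0.75 and -1.80) changed more at 6 h. With a separate dose effect at each time, A485 had 1 library per dose and time. The fits that follow thus took their spread from the other compounds alone, without replication of A485. The difference between the times was tested with a dose-by-time term, and 0 genes passed in edgeR, 418 had an unadjusted p under 0.05, and DESeq2 passed 11. Fitted at 2 h alone, 7 genes fell (0.0533%), namely MYC, JUN, PLK2, CITED2, BMP4, RND3 and the uncertain H2AC19, and none rose. At 6 h alone 169 genes passed (1.29%), of which 165 fell (1.26%) and 4 rose (0.0304%).

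**Figure D3:**
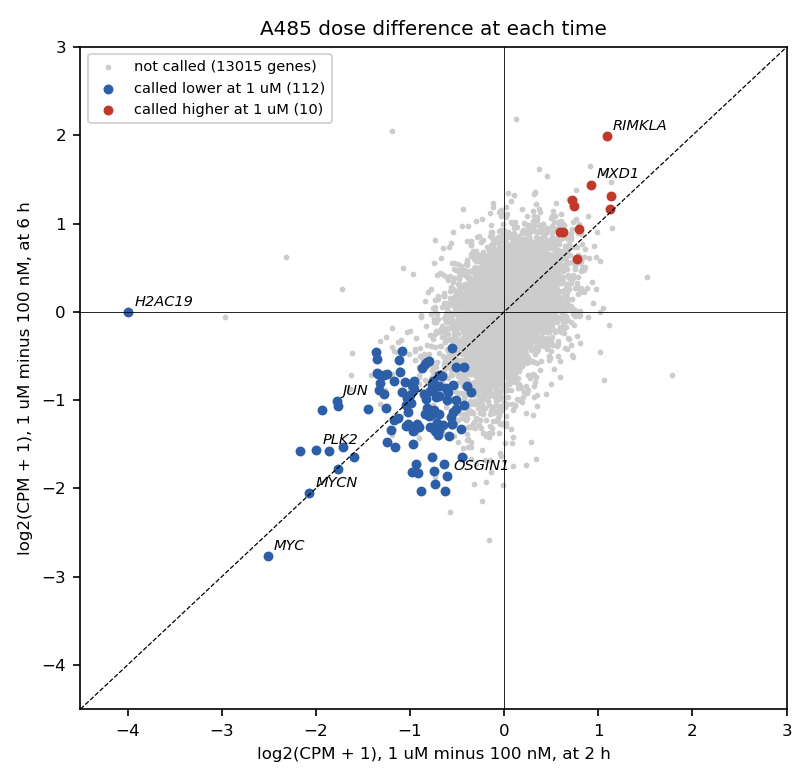
Difference between 1 uM and 100 nM A485 in log2(CPM + 1) at 2 h (horizontal axis) and at 6 h (vertical axis), 1 point per tested gene, with genes that passed lower in blue, higher in red and the rest in grey, and a dashed line where both times are equal. MYC lies at -2.51 and -2.77 near the dashed line, JUN above it and OSGIN1 below it.

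The levels were then set beside the DMSO and NT libraries, to see where 100 nM lay. For most of the 112 falls 100 nM lay below both controls, in 108 genes at 2 h and 104 at 6 h, and 1 uM lay further down. The median difference from the mean of DMSO and NT was -0.47 at 2 h and -0.50 at 6 h for 100 nM, and -1.36 and -1.61 for 1 uM, in log2(CPM + 1). For the 10 rises, 100 nM lay above both controls in 8 genes at 2 h and 9 at 6 h, with medians of 0.26 and 0.44 at 100 nM and 1.19 and 1.70 at 1 uM. These genes were chosen on the dose difference, so these values describe them and no test was made. How many of all genes tested lay beyond both controls at 100 nM was not counted, so these counts have no background. The test against the 4 pooled control libraries, with time as a term, passed 1091 of 13260 genes at 1 uM (8.23%), 449 lower (3.39%) and 642 higher (4.84%). At 100 nM it passed 2 (0.0151%), both lower, with 980 at an unadjusted p under 0.05. The 2 genes at 100 nM were BTG2 (-1.26, edgeR adjusted p = 0.000798) and BMP4 (-1.69, edgeR adjusted p = 0.00142), and at 1 uM they were at -2.43 and -3.92 (edgeR adjusted p = 2.6e-07 for each). MYC was at -0.81 (edgeR adjusted p = 0.767) at 100 nM and at -3.75 (edgeR adjusted p = 0.00234) at 1 uM. Both contrasts share their control libraries and are only set side by side. Which direction held more genes at 1 uM depended on the setting: DESeq2 passed 834 lower and 753 higher, and DMSO alone as the control gave 153 lower and 186 higher. NT alone gave 164 lower and 146 higher, leaving out the 2 h library 66 and 53, and leaving out the 6 h library 115 and 92. At 100 nM both BTG2 and BMP4 lost their calls without the 2 h library, where 0 genes passed in edgeR and 761 had an unadjusted p under 0.05, and kept them without the 6 h library, where 3 did.

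At 6 h the 100 nM library lay on the other side of the controls from 1 uM in 7 of the falls. OSGIN1, a growth inhibitor gene induced by oxidative stress, was at 5.76 and 3.43 CPM (100 nM and 1 uM) at 2 h, both under the controls at 7.93 and 8.52 CPM. At 6 h OSGIN1 was at 30.0 CPM at 100 nM and 7.53 CPM at 1 uM, with the controls at 9 and 10.4 CPM. Its fitted change of -1.55 (SE 0.27, edgeR adjusted p = 0.0256) thus rests at 6 h on a high 100 nM library more than on a low 1 uM library. TRIM16, a ubiquitin ligase gene, which is named after its values were seen, was at 140 CPM at 100 nM and 67.0 CPM at 1 uM at 6 h, with 97.2 and 99.5 CPM in the controls.

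**Figure D4:**
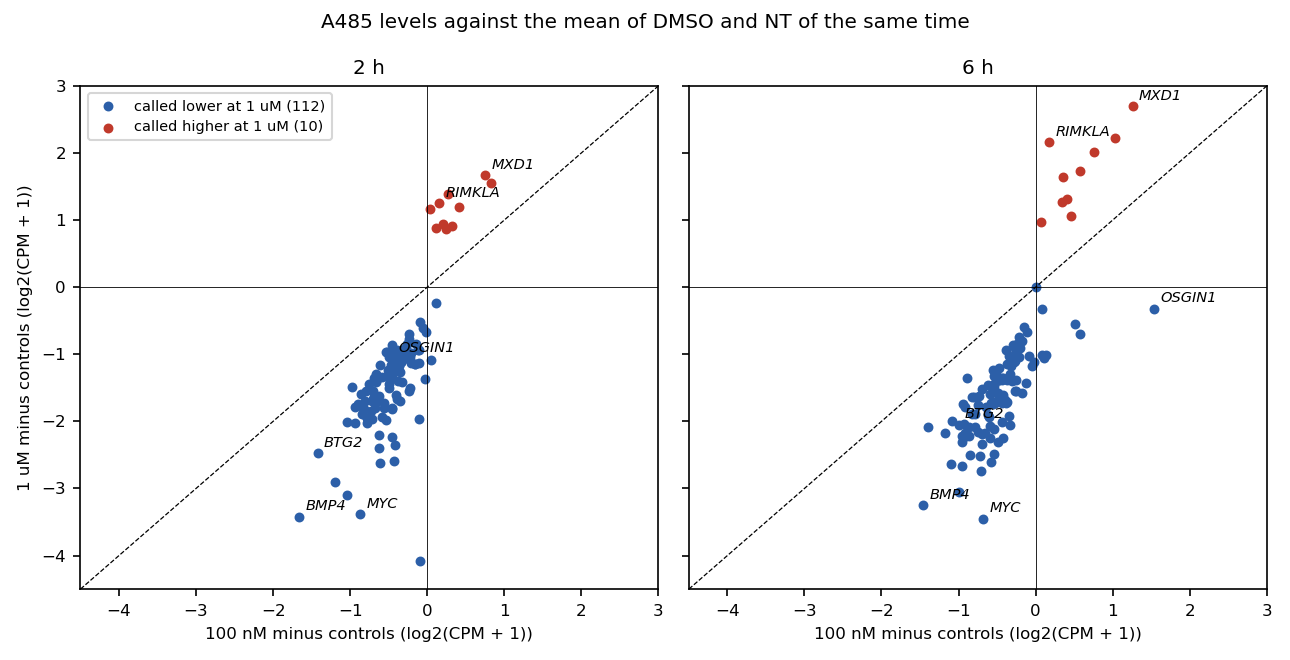
Difference from the mean of DMSO and NT of the same time, in log2(CPM + 1), at 100 nM (horizontal axis) and at 1 uM (vertical axis), for the 112 falls in blue and the 10 rises in red, at 2 h (left) and 6 h (right), with a dashed line where both doses are equal. Most blue points lie left of 0 and below the dashed line, and OSGIN1 lies right of 0 at 6 h.

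The last comparison asked whether the same step in dose did as much with the other compounds, by a test of the difference itself. Between 100 nM and 1 uM, 0 genes passed for dCBP (150 at an unadjusted p under 0.05), 14 for IHK-44 (0.107%, all lower) and 0 for JQAD (262 at an unadjusted p under 0.05). The median change of the 112 A485 falls was -0.12 for dCBP, -0.26 for IHK-44 and 0.02 for JQAD. The A485 step differed from the mean step of the other compounds in 21 genes (0.16%), and was more negative than that mean in all of them. The difference was -2.78 for MYC (SE 0.20, edgeR adjusted p = 0.000237), -1.76 for PLK2, -2.08 for BMP4, -1.52 for SOX9 and -1.17 for BTG2 (edgeR adjusted p = 0.00718, 0.00782, 0.0186 and 0.0203). SOX9 encodes a factor of cartilage and neural crest fate, and was at 12.7 and 5.76 CPM at 2 h and 17.7 and 7.47 CPM at 6 h with A485. Its fitted change was -1.26 with A485, and 0.63 with IHK-44, 0.10 with dCBP and 0.05 with JQAD. Its difference thus includes an opposite step with IHK-44, which did not itself pass. The other 16 were RND3, PHLDA1, MYCN, CITED2, SOX4, JUN, IRF2BP2, P2RY1, FLRT3, EFNB2, LMCD1, KLF4, ERRFI1, DMRT2, INKA2 and HS3ST3B1, with edgeR adjusted p from 0.0242 (RND3) to 0.0473.

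The levels at 6 h show where 3 of these genes stood with dCBP and IHK-44 at the lower dose. Levels with JQAD are not given, so whether these genes were low with 100 nM JQAD is not shown. At 6 h MYC was at 2.05 CPM with 100 nM dCBP and 1.47 CPM with 1 uM dCBP, and at 0.833 and 1.26 CPM with IHK-44, whereas 100 nM A485 left it at 43.7 CPM and 1 uM A485 at 5.54 CPM. BMP4 at 6 h was at 3.47 and 2.06 CPM with dCBP and at 1.73 and 1.68 CPM with IHK-44, against 9.28 and 1.99 CPM with A485. At 1 uM and 6 h the BMP4 levels of these 3 compounds thus ran from 1.68 to 2.06 CPM. BTG2 at 6 h was at 18.3 and 18.2 CPM with dCBP and 15.1 and 13.2 CPM with IHK-44, against 31.8 and 14.8 CPM with A485. In pairwise tests the A485 step differed from that of dCBP in 3 genes (MYC, PLK2 and the uncertain H2AC19), from that of IHK-44 in 3 (MYC, BMP4 and SOX9), each 0.0228%, and from that of JQAD in 10 (0.0761%). MYC passed in all 3, with differences of -2.50, -2.91 and -2.93.

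Some genes fell between the doses of both IHK-44 and A485. Over all genes tested, 0.853% fell between the doses of A485 and 0.107% between those of IHK-44. Both sets of calls come from the same fit, with a spread per gene that they share, so they are not independent. Of its 14 genes 6 also fell between the doses of A485, 42.9% of the IHK-44 genes and 4.92% of the A485 genes: ADAMTS1, FOXC2, MSC, RGS16, SPRY1 and SPRY2. SPRY1 changed by -2.76 with IHK-44 (SE 0.32, edgeR adjusted p = 0.00724) and by -1.99 with A485, and SPRY2 by -1.73 (SE 0.17, edgeR adjusted p = 0.00275) and by -1.15. At 6 h SPRY1 was at 17.3 and 1.44 CPM with IHK-44 (100 nM and 1 uM) and at 81.1 and 26.5 CPM with A485. RGS16 changed by -2.59 with IHK-44 (SE 0.37, edgeR adjusted p = 0.0253), and was at 4.17 and 0.601 CPM at 6 h. These 3 genes did not pass the test of the difference between A485 and the mean of the other compounds (edgeR adjusted p = 0.54, 0.518 and 0.67 for SPRY1, SPRY2 and RGS16), which does not show that the compounds act alike.

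**Figure D5:**
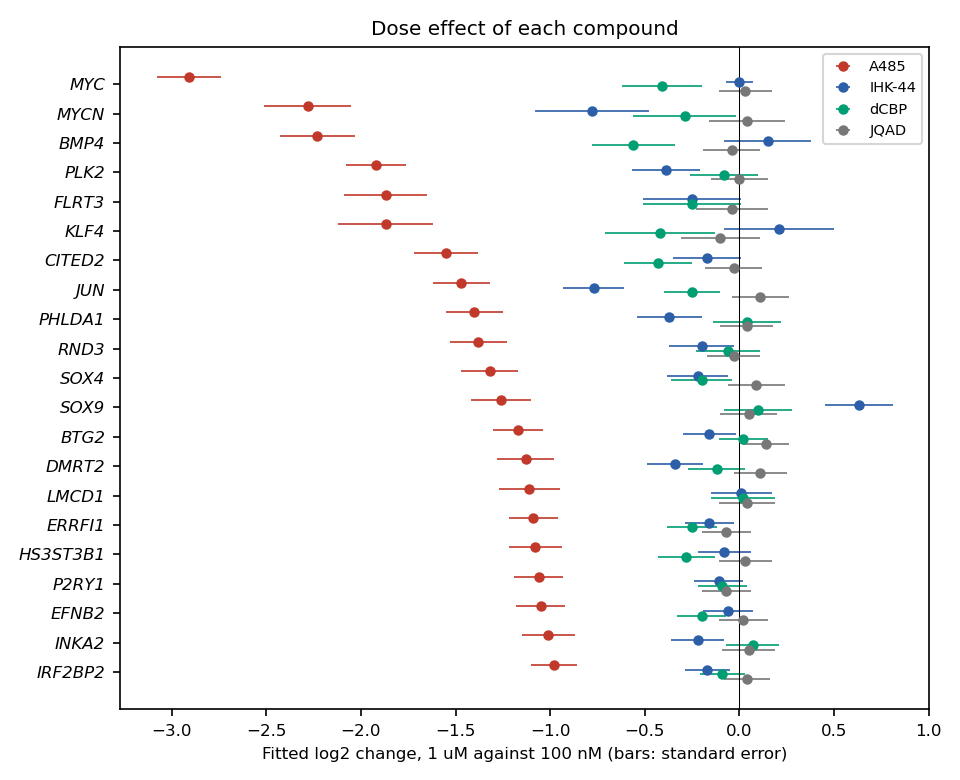
Fitted log2 change between 100 nM and 1 uM of the 21 genes whose A485 step differed from the mean step of the other compounds, for A485 (red), IHK-44 (blue), dCBP (green) and JQAD (grey). Bars are standard errors derived from the F statistic of edgeR's test, and are unreliable for changes near 0. The A485 points lie furthest left in each gene, from -2.91 for MYC down the panel, while the JQAD points lie between -0.10 and 0.14.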

How the data were processed

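RNA-seq of total RNA from RH4 cells was used, and 12 ChIP-seq and ChRO-seq samples were not analysed here. The deposited files list 18980 coding genes by symbol. The expected counts were estimated per gene by the authors (88.2% of the values are whole), and STAR 2.5.3a, RSEM 1.3.3 and hg38 are named, without their roles, per the submitters' processing notes. The TPM values deposited by the authors (abundance per length) were scaled over more genes than the coding rows. The CPM values deposited by the authors were scaled to the coding rows of each library. Deposited FPKM values were not used.

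Expected counts were rounded and fitted with edgeR 4.0.16 (R 4.3.3; quasi-likelihood, TMM, filterByExpr, Benjamini-Hochberg over all genes tested, threshold 0.05). The standard error (SE) given with a fitted change is the size of that change divided by the square root of the test's F statistic. It was not estimated directly and is unreliable for changes near 0. The dose fit held 16 treated libraries, compound by time as a block and a dose term per compound (13137 genes, 4 residual degrees of freedom, biological coefficient of variation 0.112). The block pairs the doses by time label, since the labels carry no replicate numbers. The control fit held 20 libraries, with DMSO and NT pooled, a level for each compound and dose, and time (13260 genes, 10 residual degrees of freedom, biological coefficient of variation 0.144). DESeq2 1.42.0 and limma 3.58.1 were alternatives, and Python 3.11.15 did the rest. Ratios of single libraries used log2(CPM + 1), pseudocount 1, for the 12174 genes with a mean of at least 1 CPM over 20 libraries. Single genes at 1 CPM rest on few reads, which limits their precision.

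Tested on simulated counts with a log2 change of 1, the dose fit recovered 88.3% of 196 changed genes among 12757, with 0 of the wrong sign and 5 false calls. The simulation drew all libraries around the mean control level, with the same coefficient of variation, 0.112, for all genes. It held no other effect of compound or time, so it checks the code and gives no error rate for these data. Named genes were the 15 largest falls and 10 largest rises with the same sign at both times and a mean of at least 1 CPM, members of 16 lists that passed, 10 genes known for this line or target, and the 5 with the smallest p in the contrasts between compounds and times. The members, lists and tests were chosen with earlier results of these data known. Values of a few genes are not reported here.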

Additional observations from a re-analysis of the deposited data

Results flagged for a closer look

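The step from 100 nM to 1 uM differed between A485 and the mean of dCBP, IHK-44 and JQAD in 21 genes, by edgeR's test of the difference itself. In each of the 21 the A485 step was more negative than that mean. MYC, PLK2 and BMP4 had the smallest p. Set against single compounds, the A485 step differed from that of dCBP in 3 genes (MYC, PLK2 and H2AC19, whose counts are uncertain), from that of IHK-44 in 3 genes (MYC, BMP4 and SOX9), and from that of JQAD in 10 genes (MYC, PLK2, BMP4, MYCN, JUN, BTG2, PHLDA1, CITED2, SOX4 and RND3). The 3 pairwise tests share the A485 libraries.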

How the results depend on the processing

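With 1 library per condition, the count of 122 genes for the A485 dose moved with the model. It was 232 with DESeq2, 45 with limma on log2(CPM + 1), 1 with limma on log2(TPM + 1), 73 without scaling factors, 243 without a filter, 218 without the dCBP libraries, 71 without the JQAD libraries and 8 over all 20 libraries, and the cause was not tested. Without the time pairing (no replicate block) it was 0, with the differences between times in the spread, and MYC did not pass there or over all 20 libraries. Leaving out an A485 pair left the spread of the dose fit to the other compounds alone. Without the 6 h pair 7 genes passed and without the 2 h pair 170, of which 60 were among the 122. All 122 kept their sign in the settings that tested them, except 1 gene without the 2 h pair. The settings refit the same A485 libraries on which these genes were chosen, so a kept sign is no independent check. Counting only genes with 1 uM beyond both controls at both times, a rule chosen after seeing the data, left 121. TPM moved the median gene by 0.214 (log2) in the fit and by 0.37 at 2 h. The contrast with the other compounds went from 21 to 58 (DESeq2) and 52 (no filter), and the dose-by-time count from 0 to 11 (DESeq2). Against controls, 1 uM went from 1091 to 339 (DMSO alone), 310 (NT alone) and 119 to 207 without single A485 libraries, and DESeq2 passed 52.6% of its genes as lower, edgeR 41.2%. At 100 nM, 2 became 29 (DESeq2), 7 (RLE), 7 (no filter) and 0 to 3 without single libraries. The 2-fold counts (2 h lower, 2 h higher, 6 h lower, 6 h higher) of 64, 11, 218 and 56 became 104, 65, 329 and 161 with a pseudocount of 0.1, 248, 163, 663 and 506 at 1.5-fold, and 18, 31, 149 and 17 with TPM. Centring on the median gene gave 36 for 6 h higher. Of 705 results of the 47 named genes that passed, 416 passed again, 289 did not and 0 reversed. MYOD1 (adjusted p = 0.0206) and FOXO1 (0.0177) passed in the 4 A485 libraries alone in edgeR, MYOD1 (0.0263) and SOX8 (0.0184) without the IHK-44 libraries, and PAX3 (0.0358) with DESeq2.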

Other observations

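DESeq2 passed 11 genes in which the A485 dose difference itself differed between 2 h and 6 h, while edgeR passed none. SEMA6A, MN1, MEOX1, TNS1, BMP5, BMF, KLHL30, RIPOR2, PDGFC and PDZRN3 had the larger fall at 6 h, and RGPD5, a member of a family of near-identical copies, went the other way and is uncertain. SEMA6A, a membrane semaphorin gene, was at 205 and 180 CPM (100 nM and 1 uM) at 2 h and at 152 and 39.0 CPM at 6 h, against 222 to 251 CPM in DMSO and NT. MEOX1, a homeobox gene of the embryonic somite, was at 22.9 and 20.4 CPM at 2 h and at 11.4 and 1.06 CPM at 6 h. BMP5, a ligand gene, was at 47.3 and 37.6 CPM at 2 h and at 65.8 and 16.2 CPM at 6 h. In these 3 genes the doses lay close together at 2 h and far apart at 6 h. The test of the time difference took its spread from the other compounds alone, without replication of A485.

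The next 3 genes were picked after their values in the 100 nM A485 library at 6 h were seen, and stand for no group. TXNRD1, the gene of a thioredoxin reductase, was at 263 CPM there, against 168 CPM in DMSO, 162 CPM in NT and 179 CPM at 1 uM. SLC7A11, the cystine transporter gene, was at 43.0 CPM, against 18.3, 19.2 and 19.8 CPM in the same libraries. GCLM, a subunit gene of glutathione synthesis, was at 73.0 CPM, with 38.3 and 32.8 CPM in DMSO and NT and 68.4 CPM at 1 uM, so that both doses were high. These are values of single libraries without a replicate check.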
